A study of Homo sapiens with 3 samples.

Results

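Epithelial-mesenchymal transition (EMT) factors were examined as a set of 10 genes in CAL27 cells, a human oral squamous cell carcinoma (OSCC) line, and in its drug-resistant derivatives. The set is a list of gene symbols and holds 5 EMT-driving factors (ZEB1, ZEB2, SNAI1, SNAI2 and TWIST1) and 5 epithelial gatekeepers (GRHL2, OVOL1, OVOL2, ESRP1 and ESRP2). All 10 were found by gene symbol among the 19220 genes of the count table, all 10 had counts in every library, and all 10 passed the filter on low values, set at 10 counts as the average of the libraries, which 13676 genes passed. The parental CAL27 cells, labelled as wild type, grew without drug. The CAL27/5FU cells, labelled as resistant to 5-fluorouracil, were kept in 10 µM 5FU, and the CAL27/OXA cells, labelled as resistant to oxaliplatin, were kept in 10 µM OXA. All 3 lines grew in DMEM with serum, and whether a derivative is a clone or a pool is not given in the sources used here. Since both derivatives were under drug and CAL27 was not, the acquired state and the presence of the drug cannot be told apart.

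EMT is a programme in which epithelial cells loosen their junctions and take on mesenchymal traits. ZEB1 and ZEB2 are zinc-finger repressors that bind E-boxes in epithelial genes, SNAI1 (Snail) and SNAI2 (Slug) read the same motif, and TWIST1 is a basic helix-loop-helix factor. On the other side, GRHL2 activates junction genes, OVOL1 and OVOL2 repress mesenchymal genes including ZEB1, and ESRP1 and ESRP2 direct epithelial exon choice in transcripts such as those of FGFR2 and CD44. SNAI2 is also a normal factor of basal squamous cells.

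For each line, 1 library was used. Another column per line, which may hold a second library of it, matches no labelled sample and was left out. The libraries had 41786182 counts (CAL27), 37297713 counts (CAL27/5FU) and 43455488 counts (CAL27/OXA). Because of this choice of columns, the differences below were not checked against replicates and are given without p-values. Ratios are log2 ratios of counts scaled to library size with TMM factors, a gene is said to rise or fall only when it is past 2-fold, and the range given after a ratio is its exact 95% interval (Clopper-Pearson, from both counts), which covers counting error only. Levels of different genes are compared as FPKM, which is per length. In bulk RNA, a change in the share of cells that express a gene and a change in the RNA per cell cannot be told apart.

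The pattern of the set was a rise of both ZEB genes and a fall of most gatekeepers in each resistant line. In CAL27/5FU cells, 2 of the 5 drivers rose, where 8.46% of all tested genes rose, and 4 of the 5 gatekeepers fell, where 6.72% of all tested genes fell. In CAL27/OXA cells, 2 of the 5 drivers rose (6.54% of all tested genes) and 3 of the 5 gatekeepers fell (9.28%). No driver fell and no gatekeeper rose in either line. The whole counting interval lay past 2-fold for 5 of the 10 members in CAL27/5FU (9.81% of all tested genes), for 4 of 10 in CAL27/OXA (10.2%) and for 1 of 10, OVOL1, between the derivatives (7.52%). The median log2 ratio of the drivers was 0.85 in CAL27/5FU and 0.59 in CAL27/OXA, and that of the gatekeepers was -1.33 and -1.30, beside -0.0035 and 0.0055 for all tested genes. On the log2 scale of FPKM plus 1, the medians in CAL27/5FU were 0.46 for the drivers and -0.87 for the gatekeepers. Both comparisons share the CAL27 library, so the values of the derivatives are set side by side and are not independent of each other. Scaling by total counts moved the median of all tested genes in CAL27/5FU to 0.17 and the share of higher genes among those past 2-fold from 55.7% to 67.2%. In CAL27/OXA it moved the median to 0.14 and that share from 41.3% to 51.1%, so that higher genes then outnumbered lower ones.

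**Figure D1:**
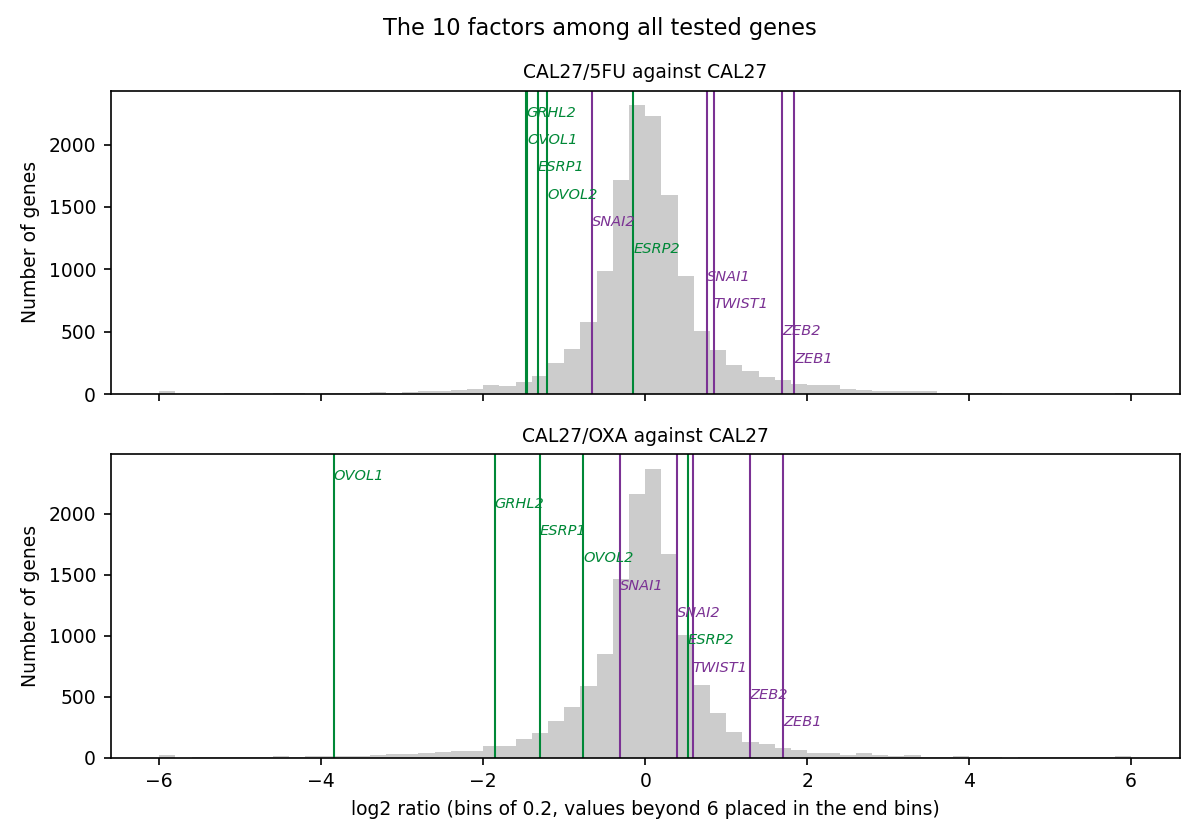
Histograms of the log2 ratio of CAL27/5FU to CAL27 (top) and of CAL27/OXA to CAL27 (bottom) for the 13676 tested genes, with the number of genes on the vertical axis and lines at the drivers (purple) and gatekeepers (green). ZEB1 and ZEB2 lie in the right tail of both panels, while GRHL2, OVOL1 and ESRP1 lie in the left tail of both.

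ZEB1 and ZEB2 were the least abundant members in CAL27 cells, and both were higher in each derivative. ZEB1 had 75 counts (CAL27), 275 (CAL27/5FU) and 283 (CAL27/OXA), which are 0.290, 1.19 and 1.05 FPKM. The CAL27 library was thus the low one and the derivatives were close to each other. The log2 ratio of ZEB1 to CAL27 was 1.84 (1.49 to 2.26) in CAL27/5FU and 1.70 (1.35 to 2.11) in CAL27/OXA, or 3.58-fold and 3.25-fold. Of all tested genes, 96.6% had a lower ratio than ZEB1 in CAL27/5FU and 97.1% in CAL27/OXA. Between the derivatives, the log2 ratio of ZEB1 (CAL27/OXA to CAL27/5FU) was -0.14 (-0.39 to 0.10), an interval that holds 0.

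ZEB2 had 62 counts (CAL27), 206 (CAL27/5FU) and 176 (CAL27/OXA), or 0.161, 0.600 and 0.440 FPKM. As for ZEB1, the parental library was the lowest. Its log2 ratios to CAL27 were 1.70 (1.31 to 2.16) in CAL27/5FU and 1.29 (0.89 to 1.76) in CAL27/OXA, so that the second interval reached below 2-fold. ZEB1 exceeded ZEB2 by an FPKM ratio of 1.80 (CAL27), 1.99 (CAL27/5FU) and 2.39 (CAL27/OXA). The change of this ratio from CAL27 was 1.10-fold (0.739 to 1.64) and 1.33-fold (0.886 to 1.99), both with intervals that hold 1. Even after their rise, both genes stayed far below the median FPKM of detected genes, which was 7.36 in CAL27/5FU and 7.03 in CAL27/OXA. Because of these low levels, a log2 scale of FPKM plus 1 placed both genes under 2-fold in both lines, with log2 ratios of 0.76 and 0.67 for ZEB1 and 0.46 and 0.31 for ZEB2.

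The ZEB genes are known for mutual repression with the microRNAs of the miR-200 family, whose sequences are shown here because the family was not measured in these libraries and the match to ZEB transcripts can be read from sequence alone. None of the 8 host or microRNA genes of the miR-200 and miR-205 loci that were looked up is among the genes of the count table. Mature sequences from RefSeq (GRCh38.p14) fall into 2 seed classes, with the seed (bases 2 to 8) in capitals:
hsa-miR-200b-3p: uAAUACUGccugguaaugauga
hsa-miR-200c-3p: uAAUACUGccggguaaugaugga
hsa-miR-429: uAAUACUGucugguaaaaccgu
hsa-miR-200a-3p: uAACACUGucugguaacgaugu
hsa-miR-141-3p: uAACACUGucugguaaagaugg

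The letters that pair with these seeds are CAGTATT for the class of miR-200b and CAGTGTT for the class of miR-200a, and they were searched on the transcript strand of the longest annotated 3′ UTR of each coding gene in GENCODE 29. ZEB1 (ENST00000446923.6, a 3′ UTR of 2549 bases) held 6 matches to CAGTATT and 3 to CAGTGTT, and ZEB2 (ENST00000638128.1, 5370 bases) held 5 and 4. Of all 19128 genes with a 3′ UTR, 0.0157% held at least 6 and 0.0366% at least 5 matches to CAGTATT, and among those with a 3′ UTR at least as long as that of ZEB1 the share with at least 6 was 0.0684%. Among 3′ UTRs at least as long as that of ZEB2, 0.557% held at least 5. For CAGTGTT, the shares with at least as many matches were 1.05% (ZEB1) and 0.303% (ZEB2) of all genes, and 4.42% and 4.27% among 3′ UTRs at least as long. SNAI1, TWIST1, OVOL1, OVOL2 and ESRP2 held 0 matches to either. The first match of each ZEB gene to CAGTATT is printed with its flanks, the match in capitals, from ZEB1 on the plus strand at chr10:31527626-31527646 and from ZEB2 on the minus strand at chr2:144389046-144389066 (GRCh38):
ZEB1: atcttatCAGTATTatcactc
ZEB2: catacatCAGTATTtttatta
Such a match is a description of the sequence and not a measured site.

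The other 3 drivers were within 2-fold of CAL27 in both derivatives. SNAI2 was the most abundant driver in all 3 libraries, with 20.9 FPKM (CAL27), 14.9 (CAL27/5FU) and 30.2 (CAL27/OXA), and it alone made up 83.8%, 62.3% and 81.3% of the summed FPKM of the 5 drivers. Its 1844, 1174 and 2768 counts gave log2 ratios to CAL27 of -0.66 (-0.77 to -0.55) in CAL27/5FU and 0.40 (0.31 to 0.48) in CAL27/OXA, on opposite sides of the parental line and both within 2-fold. Between the derivatives, SNAI2 was past 2-fold higher in CAL27/OXA, with a log2 ratio of 1.05 (0.96 to 1.15), which was 0.97 when FPKM plus 1 was used in place of counts.

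SNAI1 was scarce, with 46, 80 and 42 counts in CAL27, CAL27/5FU and CAL27/OXA, or 0.644, 1.25 and 0.565 FPKM. Its log2 ratio was 0.77 (0.25 to 1.35) in CAL27/5FU and -0.31 (-0.96 to 0.31) in CAL27/OXA. The CAL27/5FU library was the high one, and SNAI1 was lower in CAL27/OXA than in CAL27/5FU by more than 2-fold, with a log2 ratio of -1.07 (-1.69 to -0.56). The Snail genes thus took opposite places in the derivatives. The balance within related pairs of members was computed after their values were seen. SNAI2 exceeded SNAI1 by an FPKM ratio of 32.4 (CAL27), 11.9 (CAL27/5FU) and 53.3 (CAL27/OXA). From CAL27/5FU to CAL27/OXA this ratio was 4.49-fold higher (3.03 to 6.73), a value that does not depend on library scaling.

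TWIST1 had 205, 372 and 352 counts in CAL27, CAL27/5FU and CAL27/OXA, or 2.94, 5.99 and 4.86 FPKM. It was higher in both derivatives but within 2-fold, with log2 ratios of 0.85 (0.60 to 1.11) and 0.59 (0.34 to 0.85). Under scaling by total counts the first of these was 1.02 and thus past 2-fold.

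**Figure D2:**
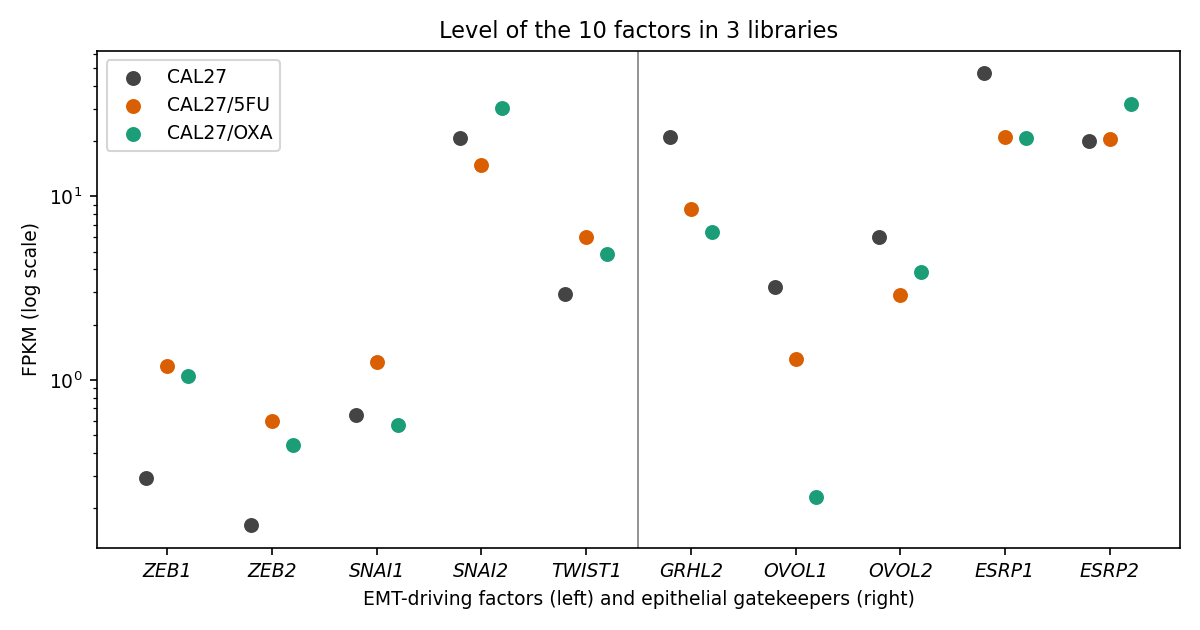
FPKM (log scale) of the 5 drivers (left of the line) and the 5 gatekeepers (right) in CAL27 (grey), CAL27/5FU (orange) and CAL27/OXA (teal), 1 point per library. ZEB1 and ZEB2 are lowest in CAL27, GRHL2, OVOL1, OVOL2 and ESRP1 are highest in CAL27, and OVOL1 reaches 0.228 FPKM in CAL27/OXA.

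Among the gatekeepers, GRHL2 fell in both derivatives. It had 4659 counts (CAL27), 1686 (CAL27/5FU) and 1463 (CAL27/OXA), or 21.2, 8.59 and 6.40 FPKM. The parental library was the high one, and the derivatives differed from each other by a log2 ratio of -0.39 (-0.49 to -0.29). The log2 ratios of GRHL2 to CAL27 were -1.47 (-1.55 to -1.39) and -1.86 (-1.95 to -1.78), that is 2.77-fold and 3.63-fold lower, and both stayed past 2-fold under all 10 alternatives of scaling, filter, prior count and unit. Only 3.54% and 3.47% of tested genes had a lower ratio.

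OVOL1 showed the largest difference of the set. Its counts were 404 (CAL27), 147 (CAL27/5FU) and 30 (CAL27/OXA), or 3.20, 1.30 and 0.228 FPKM, so that each library was apart from the others. The log2 ratio to CAL27 was -1.45 (-1.75 to -1.19) in CAL27/5FU and -3.85 (-4.53 to -3.40) in CAL27/OXA, or 2.74-fold and 14.4-fold lower, and 0.665% of tested genes had a lower ratio in CAL27/OXA. Between the derivatives, OVOL1 was lower in CAL27/OXA with a log2 ratio of -2.39 (-3.09 to -1.90). In that comparison 1 of the 5 gatekeepers fell (8.38% of all tested genes) and none rose, while 1 driver rose (SNAI2, where 4.18% of all tested genes rose) and 1 fell (SNAI1). On the log2 scale of FPKM plus 1, the ratio of OVOL1 was -0.87 in CAL27/5FU and -0.91 between the derivatives, both within 2-fold, and in CAL27/OXA against CAL27 it was -1.77, still past 2-fold. That scale also put OVOL2 in CAL27/5FU (-0.85) and SNAI1 between the derivatives (-0.53) within 2-fold.

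OVOL2, the close relative of OVOL1, had 351, 151 and 234 counts in CAL27, CAL27/5FU and CAL27/OXA, or 6.04, 2.91 and 3.87 FPKM. Its log2 ratio was -1.21 (-1.51 to -0.94) in CAL27/5FU, a fall, and -0.77 (-1.02 to -0.53) in CAL27/OXA, within 2-fold. The order of the derivatives was therefore the reverse of that for OVOL1. OVOL2 exceeded OVOL1 by an FPKM ratio of 1.89 (CAL27), 2.23 (CAL27/5FU) and 17.0 (CAL27/OXA). Against CAL27, the ratio of OVOL2 to OVOL1 was 8.96-fold higher (5.93 to 13.9) in CAL27/OXA and 1.18-fold (0.896 to 1.56) in CAL27/5FU, where the interval holds 1.

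ESRP1 was the most abundant member in CAL27 cells and fell in both derivatives. It had 7191, 2878 and 3327 counts in CAL27, CAL27/5FU and CAL27/OXA, or 46.9, 21.0 and 20.8 FPKM, with log2 ratios to CAL27 of -1.33 (-1.39 to -1.27) and -1.30 (-1.36 to -1.24). The difference between the derivatives was 0.03 (-0.05 to 0.10), an interval that holds 0, and its sign turned with scaling by total counts. ESRP2 was the gatekeeper that fell in neither line. It had 3377, 3065 and 5559 counts, or 20.1, 20.4 and 31.8 FPKM, with log2 ratios of -0.15 (-0.22 to -0.08) in CAL27/5FU, positive (0.02) under scaling by total counts, and 0.53 (0.47 to 0.59) in CAL27/OXA. As a result of both, the order of the ESRP genes differed between lines. ESRP1 exceeded ESRP2 by an FPKM ratio of 2.33 in CAL27, the ratio was 1.03 in CAL27/5FU, and ESRP2 exceeded ESRP1 by a ratio of 1.53 in CAL27/OXA. Against CAL27, the ratio of ESRP2 to ESRP1 was 2.27-fold (2.12 to 2.42) and 3.56-fold (3.35 to 3.78) higher. The summed FPKM of both genes was 67.0 (CAL27), 41.4 (CAL27/5FU) and 52.7 (CAL27/OXA).

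**Figure D3:**
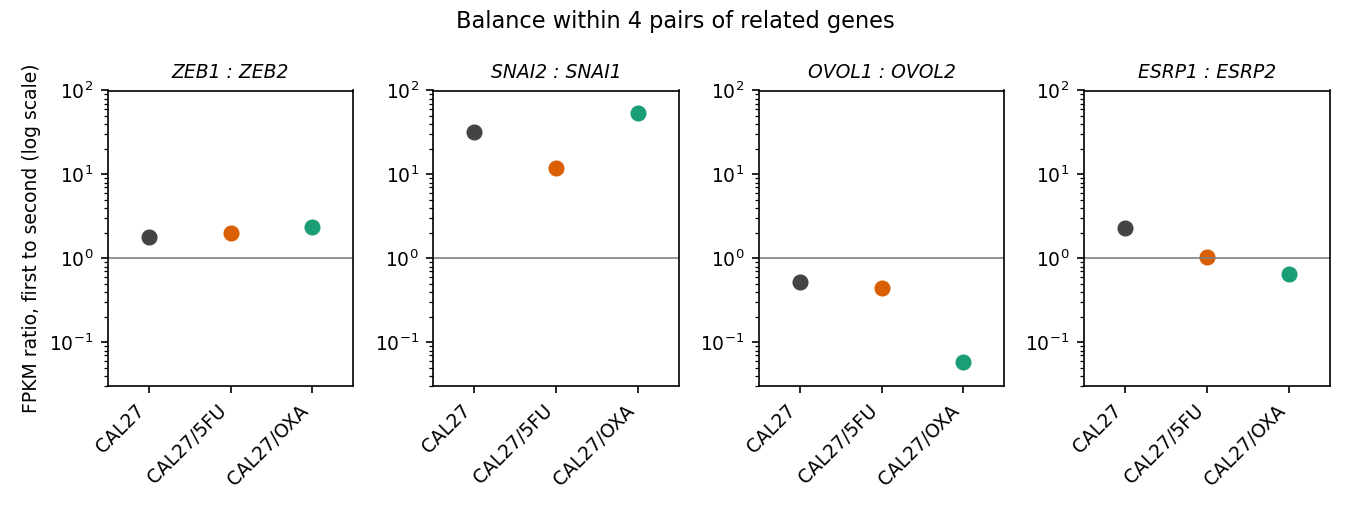
FPKM ratio (log scale) of the first to the second gene of 4 related pairs in CAL27, CAL27/5FU and CAL27/OXA, 1 point per library, with a line at equal levels. ZEB1 to ZEB2 stays between 1.80 and 2.39, OVOL1 to OVOL2 drops to 0.0590 in CAL27/OXA, and ESRP1 to ESRP2 goes from 2.33 to 1.03 and 0.655.

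**Figure D4:**
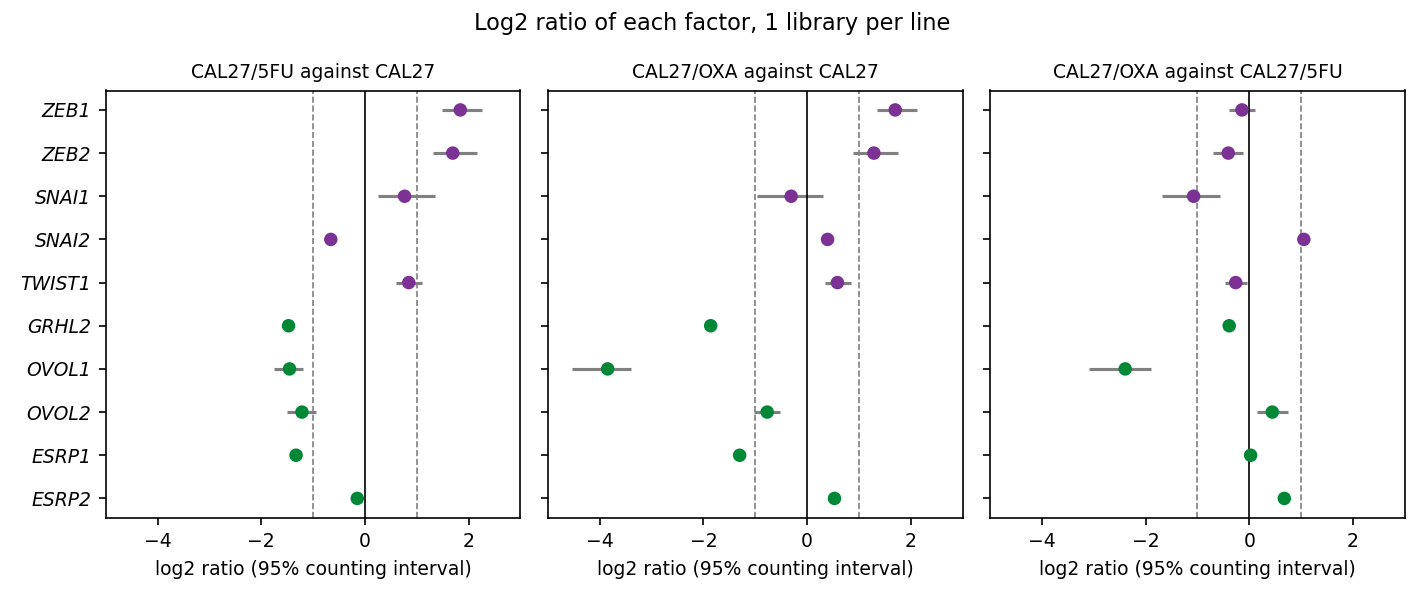
Log2 ratios of the 10 factors (drivers purple, gatekeepers green) in the 3 comparisons, with exact 95% counting intervals as bars, a solid line at 0 and dashed lines at 2-fold. Bars narrower than the points are hidden by them. In the third panel, SNAI2 and SNAI1 lie on opposite sides and OVOL1 is the farthest from 0.

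By level, the 5 gatekeepers summed to 97.4 FPKM (CAL27), 54.2 (CAL27/5FU) and 63.2 (CAL27/OXA), and the 5 drivers to 24.9, 23.9 and 37.1 FPKM. The ratio of the sums went from 3.91 in CAL27 to 2.27 and 1.70 in the derivatives. SNAI2, within 2-fold of CAL27 in both derivatives, made up 83.8% (CAL27), 62.3% (CAL27/5FU) and 81.3% (CAL27/OXA) of the driver sum. The ZEB genes together added only 0.451, 1.79 and 1.49 FPKM to it. The OVOL genes together exceeded the ZEB genes together by 20.5 (CAL27), 2.35 (CAL27/5FU) and 2.75 (CAL27/OXA). In CAL27 the order of the members by FPKM was ESRP1, GRHL2, SNAI2, ESRP2, OVOL2, OVOL1, TWIST1, SNAI1, ZEB1 and ZEB2, where GRHL2, SNAI2 and ESRP2 were within 20.1 to 21.2 FPKM. In CAL27/OXA the order began with ESRP2 and SNAI2 and ended with OVOL1. With 1 library per line used, no neighbours in these orders can be said to differ.

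The positions and the counting of some members set a limit. The kit named for the libraries is NEBNext Ultra and the strand setting of the counting is not given in the sources used here. In GENCODE 29 (GRCh38), exons of ZEB1 (ENSG00000148516.21, chr10:31318495-31529814, plus strand) and of ZEB2 (ENSG00000169554.19, chr2:144364364-144524583, minus strand) overlap those of the antisense genes ZEB1-AS1 and ZEB2-AS1. OVOL1 (chr11:65787022-65797219, plus strand) overlaps AP001266.1 on the opposite strand, OVOL2 (chr20:17956979-18059188, minus strand) overlaps SNX5 on its own strand, and ESRP2 (chr16:68229111-68238102, minus strand) overlaps NFATC3 on the opposite strand and AC020978.5 on its own. TWIST1 (chr7:19020991-19117672) and GRHL2 (chr8:101492432-101669726) each overlap 1 antisense gene. SNAI1 (chr20:49982999-49988886), SNAI2 (chr8:48917604-48921740) and ESRP1 (chr8:94641074-94707466) overlap none. Reads in shared stretches may have been given to either gene. GRHL2 and ESRP1, which fell in both derivatives, both lie on chromosome 8, as does SNAI2, which stayed within 2-fold of CAL27. DNA copy number was not measured in these libraries, and whether the falls of GRHL2 and ESRP1 are separate events was not tested.

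The genes whose pair of ratios to CAL27 lay nearest to that of a member were sought among 11540 genes averaging 100 counts or more, by Euclidean distance over the 2 ratios. For ZEB1, the driver farthest from 0 in CAL27/5FU, the nearest were ANXA6, ULBP1 and SEMA7A, at distances of 0.0342, 0.0582 and 0.134, and 13 genes lay within 0.25. For GRHL2, the gatekeeper farthest from 0 there, they were PYCARD, LAPTM4B and LRP1, at 0.0352, 0.0877 and 0.131, with 19 genes within 0.25. For OVOL1, added after its values were seen, only S100A9 and CEBPA lay within 0.25. S100A9 had 62285 counts (CAL27), 23448 (CAL27/5FU) and 4980 (CAL27/OXA). With 3 libraries, such nearness describes these libraries only.

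Other EMT transcription factors moved in both directions. Of the 17 listed, 11 were tested, and TWIST2, PRRX1, PRRX2 and GSC had 0 counts in all 3 libraries, so that up to 3 counts per library are allowed. In CAL27/5FU 4 rose and 2 fell, and in CAL27/OXA 2 rose and 2 fell, with a median log2 ratio of 0.10 in both. Of all tested genes, 8.46% rose and 6.72% fell in CAL27/5FU, and 6.54% rose and 9.28% fell in CAL27/OXA. The median in CAL27/5FU depended on the filter and was 0.88 over the 9 genes averaging 50 counts. FOSL1, a subunit of AP-1, had 2805, 8377 and 21063 counts in CAL27, CAL27/5FU and CAL27/OXA, with log2 ratios of 1.57 and 2.72. HMGA2, an architectural chromatin protein, had 6137, 14956 and 25988 counts and ratios of 1.28 and 1.89. SOX9 rose in CAL27/5FU (1.53) and had 0.16 in CAL27/OXA. Among those that fell, SOX4 had 664, 144 and 641 counts and a ratio of -2.20 in CAL27/5FU, KLF8 had 46, 0 and 4 counts, at least 15.4-fold lower in CAL27/5FU (against a floor of 3 counts) and with a ratio of -3.15 (-5.65 to -2.26) in CAL27/OXA, and SNAI3 had 57, 56 and 12 counts with -2.24 in CAL27/OXA.

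Other epithelial transcription factors were lower more often than higher. Of 12 tested, 6 fell and 1 rose in CAL27/5FU (median log2 ratio -0.86), and 4 fell and 1 rose in CAL27/OXA (median -0.23), where 6.72% and 9.28% of all tested genes fell. The 1 of 12 that rose is 8.33%, close to the 8.46% and 6.54% of all tested genes that rose. The medians depended on the filter, with -0.29 in CAL27/5FU over all 15 genes without a filter and -0.55 in CAL27/OXA over the 10 genes averaging 50 counts. GRHL1, a relative of GRHL2, had 3526, 872 and 382 counts in CAL27, CAL27/5FU and CAL27/OXA, with log2 ratios of -2.02 and -3.39. GRHL3, the other Grainyhead gene, had 109, 31 and 45 counts and ratios of -1.76 (-2.45 to -1.23) and -1.42 (-2.00 to -0.95). All 3 Grainyhead genes thus fell in both derivatives, though the interval of GRHL3 in CAL27/OXA reached below 2-fold. ELF3, an epithelial ETS factor, had 7125, 2463 and 742 counts and ratios of -1.54 and -3.45, the same order of lines as for OVOL1. The gene that rose was GATA3, with 21, 63 and 53 counts and ratios of 1.50 (0.85 to 2.37) and 1.08 (0.39 to 1.95).

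Epithelial genes known as targets of ZEB and SNAI repression had smaller median changes than the gatekeepers, a difference between lists that was not tested. Single genes overlapped, as TJP3 and CLDN4 moved further in CAL27/OXA than every gatekeeper except OVOL1. All 22 were tested. In CAL27/5FU 2 fell and none rose (median log2 ratio -0.29), and 2 of 22 is 9.09% beside the 6.72% of all tested genes. In CAL27/OXA 6 of 22 (27.3%) fell and none rose (median -0.50), beside 9.28%. CLDN4, a claudin of tight junctions, had 4510, 1672 and 1101 counts in CAL27, CAL27/5FU and CAL27/OXA and ratios of -1.44 and -2.22. CLDN3 fell in CAL27/5FU (25 and 8 counts, -1.45 with an interval of -3.01 to -0.46). TJP3, a scaffold of tight junctions, had 318, 259 and 26 counts and a ratio of -3.69 (-4.44 to -3.22) in CAL27/OXA. CDH1 (E-cadherin), named after its values were seen, had 14800, 13459 and 15076 counts and log2 ratios of -0.14 and -0.16, the first of which was 0.03 under scaling by total counts.

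The E-box that ZEB and SNAI proteins read (CACCTG, or CAGGTG on the other strand) was searched on both strands in the 250 bases before each RefSeq start site (GRCh38.p14). Of the members, windows were given for ZEB1 and ZEB2, and no window of ZEB2 held the E-box. Of 11 target genes with a window, 7 (63.6%) held the E-box, beside 20.6% of all 27305 genes with a window, and the list was written from knowledge of such motifs. The motif AACCGGTT, which Grainyhead factors read, was in 0 of these 11 and in 0.143% of all genes. RAB25, which encodes a small GTPase of epithelial vesicle traffic, was chosen after its values were seen, as a target gene that fell in CAL27/OXA and whose window holds no annotated exon of its own strand. It had 1426, 1014 and 603 counts in CAL27, CAL27/5FU and CAL27/OXA and ratios of -0.50 (-0.62 to -0.38) and -1.43 (-1.57 to -1.29). Its window (chr1:156060910-156061159, plus strand) has 1 E-box, in capitals, 41 bases before the start. The window of the first ZEB1 start (chr10:31318167-31318416, plus strand), shown because ZEB1 rose in both derivatives, has 1 as well, 57 bases before the start:
RAB25: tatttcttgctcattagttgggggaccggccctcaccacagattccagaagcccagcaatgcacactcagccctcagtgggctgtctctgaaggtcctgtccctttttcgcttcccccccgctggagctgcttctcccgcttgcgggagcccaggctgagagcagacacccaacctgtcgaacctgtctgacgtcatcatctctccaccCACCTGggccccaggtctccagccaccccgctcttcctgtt
ZEB1: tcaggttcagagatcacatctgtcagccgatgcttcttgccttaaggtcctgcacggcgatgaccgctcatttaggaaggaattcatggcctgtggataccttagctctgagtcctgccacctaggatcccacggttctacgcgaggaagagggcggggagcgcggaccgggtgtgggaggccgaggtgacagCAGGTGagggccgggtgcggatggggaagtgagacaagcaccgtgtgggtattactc
No binding was measured here, and these letters are not shown to be sites.

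Mesenchymal genes split into a few large rises and many small differences. Of 16 tested, 5 rose in CAL27/5FU (median log2 ratio 0.10), and 5 rose and 2 fell in CAL27/OXA (median 0.32). Of all tested genes, 8.46% rose in CAL27/5FU, and 6.54% rose and 9.28% fell in CAL27/OXA. The largest rises in both were VIM (vimentin), with 27, 863 and 1395 counts in CAL27, CAL27/5FU and CAL27/OXA and ratios of 4.90 and 5.41, and CDH2 (N-cadherin), with 185, 1351 and 957 counts and ratios of 2.85 and 2.17. S100A4 (-2.11) and ITGA5 (-1.13) fell in CAL27/OXA. COL3A1 and POSTN, collagen and matrix genes of mesenchymal cells, had 0 counts in all 3 libraries.

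Lists of partner and target genes of the factors were read in the same way. Of the 12 co-repressors of ZEB and SNAI, which include CTBP1 and HDAC1, 0 were past 2-fold in any of the 3 comparisons, where 15.2% (CAL27/5FU), 15.8% (CAL27/OXA) and 12.6% (between the derivatives) of all tested genes were, with median log2 ratios of -0.09 in CAL27/5FU (0.08 under total counts) and -0.20 in CAL27/OXA. None of the 10 tested genes of SNAI and TWIST protein stability was past 2-fold against CAL27 either. GSK3B (4602, 2337 and 5457 counts, 1.04) and SIAH1 (364, 281 and 735 counts, 1.20) were higher in CAL27/OXA than in CAL27/5FU, 2 of 10 beside 4.18% of all tested genes. Against CAL27, GSK3B was only just within 2-fold in CAL27/5FU (-0.98, with an interval of -1.06 to -0.91) and had 0.06 in CAL27/OXA. Of the 10 other EMT splicing factors, RBM47, RBFOX2, QKI and the rest were within 2-fold in both lines except KHDRBS3, with 18, 23 and 363 counts and a ratio of 4.01 (3.46 to 4.92) in CAL27/OXA, 1 of 10 beside 6.54% of all tested genes. Among 12 genes with exons under ESRP control, FGFR2 fell in CAL27/5FU (407, 86 and 538 counts, -2.22) and SCRIB in CAL27/OXA (-1.02). This is 1 of 12 (8.33%) in each line, close to the 6.72% and 9.28% of all tested genes that fell. CD44 had 96387, 74281 and 185923 counts and was higher in CAL27/OXA than in CAL27/5FU (1.14), as was FGFR2 (2.44, with an interval of 2.13 to 2.81). In that comparison 2 of 12 (16.7%) were thus higher, beside 4.18% of all tested genes. The values of this list are counts per gene and hold nothing on exon choice.

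The list of TGF-β and BMP inputs holds TGF-β ligands, known inducers of EMT factors, and also other ligands, receptors, SMAD genes and ID genes. Of its 15 tested genes, 3 rose and 2 fell in CAL27/5FU, and 1 rose and 4 fell in CAL27/OXA. The medians were 0.02 and 0.04, the second negative (-0.01) without a filter on counts. The 1 of 15 that rose in CAL27/OXA is 6.67%, beside 6.54% of all tested genes, and the 4 that fell are 26.7%, beside 9.28%. Those 4 were BMP2, ID1, ID2 and ID3, so that most of them were ID genes. In CAL27/5FU the background shares were 8.46% and 6.72%. The ligand TGFB2 had 26, 988 and 66 counts in CAL27, CAL27/5FU and CAL27/OXA, with log2 ratios of 5.14 (4.68 to 5.86) and 1.10 (0.48 to 1.87). BMP4 rose in CAL27/5FU (42 and 225 counts, 2.36). BMP2 fell in both lines (1569, 477 and 640 counts, -1.72 and -1.48). Of the ID genes, inhibitors of basic helix-loop-helix factors, ID3 fell in both (-1.77 and -1.59), ID1 in CAL27/OXA (6544 and 3516 counts, -1.09 with an interval of -1.15 to -1.03; named after its values were seen) and ID2 in CAL27/OXA (20 and 4 counts, -2.02 with an interval of -4.52 to -0.93).

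**Figure D5:**
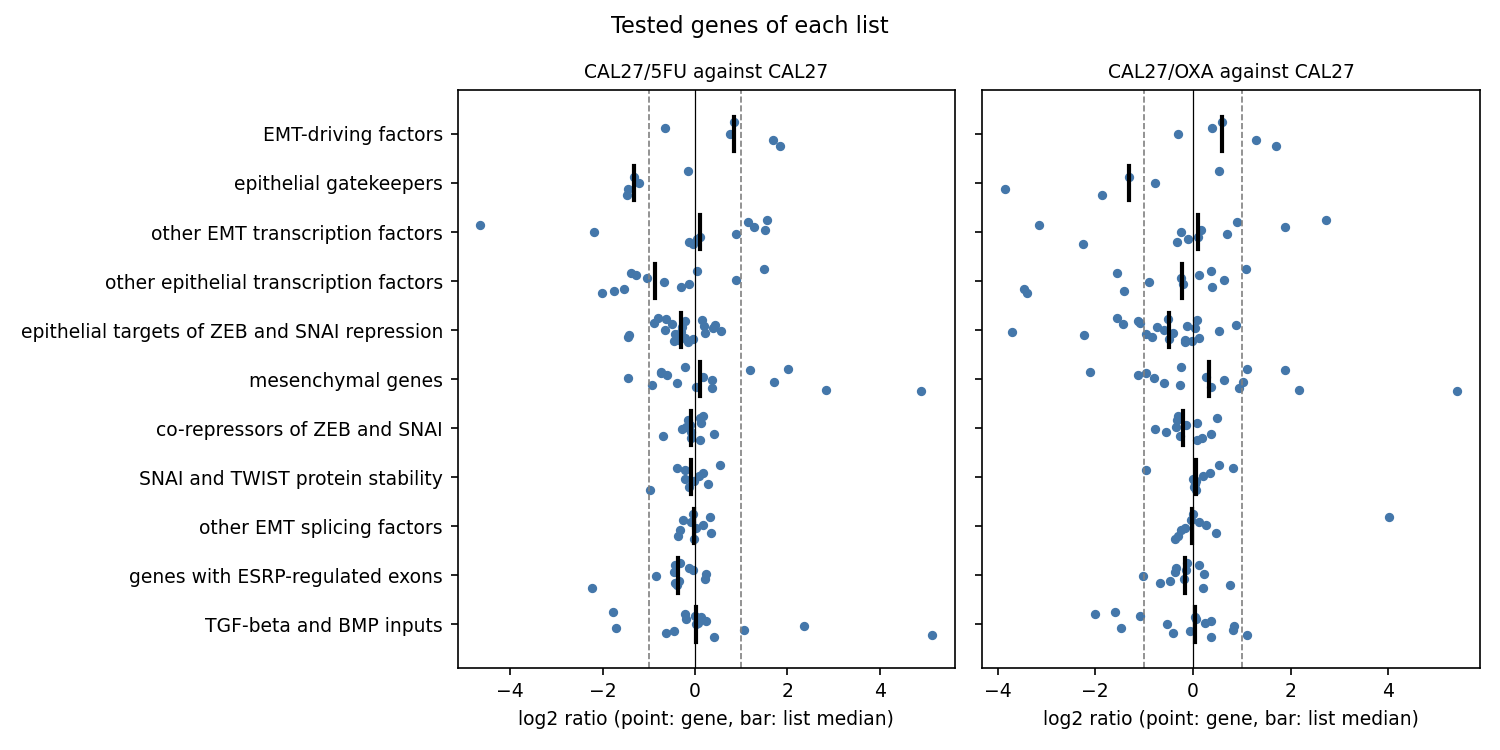
Log2 ratios of the tested genes of 11 lists in CAL27/5FU (left) and CAL27/OXA (right) against CAL27, 1 point per gene, with a bar at the list median and dashed lines at 2-fold. The gatekeeper median is left of -1 in both panels, while the medians of co-repressors and splicing factors lie near 0.

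Markers of cell type were read in the same libraries. Squamous epithelial markers were at 0 in no library, but 7 of 10 fell in CAL27/5FU (6.72% of all tested genes) and 4 of 10 in CAL27/OXA (9.28%), beside the fall of the gatekeepers. Their summed level was 16226 CPM (CAL27), 4144 (CAL27/5FU) and 5961 (CAL27/OXA), and KRT5 was the most abundant in each. EPCAM had 9428, 12457 and 10990 counts. The part of this shift in the result for the gatekeepers was not tested. Of 9 fibroblast markers 4 were tested, of which 2 rose in each line (COL1A2 and LUM), where 8.46% and 6.54% of all tested genes rose. Of the others, THY1 and COL3A1 had 0 counts in all 3 libraries, and PDGFRA had 0, 6 and 2 counts. The summed level of all 9 was 42.1, 47.5 and 50.4 CPM, with COL1A1 the most abundant. Of 8 leukocyte markers, TYROBP had 0 counts in every library and PTPRC had 2, 0 and 0, and the sum of 108, 85.1 and 127 CPM was mostly CD68. CD14 rose in CAL27/5FU (1.01) and fell in CAL27/OXA (-1.09), and ITGAM fell in both (176, 27 and 38 counts), so that of 4 tested 1 rose and 1 fell in CAL27/5FU and 2 fell in CAL27/OXA (9.28% of all tested genes). Of 6 endothelial markers, TEK had 1, 1 and 0 counts and KDR 0, 3 and 6, and the summed level was 2.64, 9.58 and 5.40 CPM, led by VWF in CAL27 and by CDH5 in the derivatives. Of the 4 endothelial markers tested, 2 rose and 1 fell in CAL27/5FU, where 8.46% and 6.72% of all tested genes did, and 2 rose in CAL27/OXA (6.54%). CDH5 rose in both (43, 338 and 163 counts), beside the rise of the ZEB genes, and so did CLDN5 (2, 8 and 31 counts), with log2 ratios of 1.34 (-0.33 to 5.27), an interval that holds 0, and 2.90 (1.79 to 6.87). VWF fell in CAL27/5FU (44 and 19 counts, -1.14), and PECAM1 had a ratio of -0.92 there. The part of these markers in the results was not tested.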

How the data were processed

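RNA-seq values of 1 library each of CAL27, CAL27/5FU and CAL27/OXA cells were used. Another 3 columns of per-sample values, named for the same lines with the number 2, may be second libraries of them, but match no labelled sample and were left out. The authors deposited unnormalized read counts for 19220 gene symbols, and FPKM for 19225. The submitters' processing notes name HISAT2 2.0.5, CASAVA 1.8 and GRCh38. The counting tool and annotation are not given in the sources used here. For 100% of 14367 genes, counts, FPKM and total gave a single gene length within 0.1%, so that FPKM is scaled by total counts.

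Counts were scaled with TMM factors (edgeR 4.0.16, R 4.3.3; factors 0.932, 1.05 and 1.02), and log2 ratios were taken with a prior count of 2 over genes averaging 10 counts or more. Code was tested on simulated data. 1 count stands for 0.0257, 0.0255 and 0.0225 CPM, and 3 counts is the floor for a gene at 0. The study's adjusted p-value from DESeq2 was not computed, since only 1 column per line could be tied to a labelled sample. The members and the 12 gene lists and 4 marker lists were chosen with earlier results of these data known. Named genes are the 10 members and the genes nearest to the driver and the gatekeeper with the largest absolute ratio. In each of the 12 gene lists, the genes past 2-fold are named as well. Where these number more than 4, the 2 largest rises and 2 largest falls are named. Genes at 0 counts, examples of what a list holds and the genes of the marker lists were named outside this rule. Any other name is marked. A gene of the mesenchymal list that this rule would name is not reported here. Alternatives were DESeq2 1.42.0 size factors, total counts, upper quartile, other filters and prior counts, FPKM with pseudocounts of 1 and 0.1, and whole intervals past 2-fold.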

Additional observations from a re-analysis of the deposited data

Results flagged for a closer look

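SNAI2 was lower than CAL27 in CAL27/5FU and higher in CAL27/OXA, with both counting intervals clear of 0, and the log2 ratio of CAL27/OXA to CAL27/5FU was 1.05. ESRP2 was likewise on opposite sides of CAL27, with 0.68 between the derivatives, but its ratio in CAL27/5FU (-0.15) was positive (0.02) under scaling by total counts. With 1 library per line used, neither difference was tested.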

How the results depend on the processing

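No called ratio of a member turned its sign under any alternative. Counts of members past 2-fold moved with FPKM values at a pseudocount of 1, with or without a minimum mean FPKM of 1: drivers that rose went to 0 in all 3 comparisons, drivers that fell between the derivatives to 0, gatekeepers that fell in CAL27/5FU to 2 and gatekeepers that fell between the derivatives to 0. This pseudocount is close to or above the FPKM of the ZEB genes. Requiring the whole interval past 2-fold left 1 driver in CAL27/OXA (ZEB1) and 0 drivers in either direction between the derivatives. All other counts of members stayed within 1.5 times. The median of the drivers in CAL27/5FU went from 0.85 to 0.46 with FPKM at a pseudocount of 1 and to 0.18 over the 2 drivers with a mean FPKM of at least 1, and that of the gatekeepers from -1.33 to -0.87 under both. The median of other epithelial factors in CAL27/5FU went from -0.86 to -0.35 with FPKM at a pseudocount of 1, and that of the epithelial targets from -0.29 to -0.12 with total counts.

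For all tested genes, counts higher and lower in CAL27/5FU were 1157 and 919, and became 1899 and 1555 without a filter, 503 and 311 with FPKM at a pseudocount of 1, 482 and 292 with a mean FPKM of at least 1 as well, and 749 and 593 for whole intervals. In CAL27/OXA, 894 and 1269 became 1348 and 1925, 368 and 481, 345 and 452 under the first 3 of these, and the higher genes 526 for whole intervals. Between the derivatives, 571 and 1146 became 981 and 1861, 165 and 437, 153 and 415, and 319 and 709. When genes had to average 50 counts, the higher ones were 760 in CAL27/5FU and 369 between the derivatives. No paired analysis was possible because 1 column per line could be tied to a labelled sample, and for the same reason no library was left out. Depth limits SNAI1, with at most 80 counts, and OVOL1 in CAL27/OXA, with 30 counts.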
